A study of Mus musculus with 15 samples.

Results

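The immunoglobulin gene segments described here are the rows of a mouse bone marrow expression table whose gene type is an immunoglobulin variable (V) or constant (C) gene. There were 215 such rows among 38315 genes. They comprised 102 heavy V, 8 heavy C, 97 kappa V, 1 kappa C, 3 lambda V and 3 lambda C genes, and 1 V gene without a chain name, Gm43218. A further 20 rows typed as V pseudogenes lay outside the rule.

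An antibody is built from heavy chains and either kappa or lambda light chains. In a developing B cell the RAG recombinase joins 1 V segment per chain to a short joining segment, in heavy chains with a diversity segment between. Each B cell clone therefore transcribes its own V segment ahead of a shared C gene. Early B cells make the mu heavy chain, and mature naive B cells make delta beside mu. Activated B cells can switch to the gamma, epsilon or alpha C genes by a further recombination. Plasma cells, which home to bone marrow, secrete antibody and carry far more immunoglobulin transcript per cell than B cells. In bulk marrow RNA, fewer cells of a type and less RNA per cell therefore cannot be told apart.

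Total RNA was extracted from bone marrow with TRIzol and sequenced after a stranded total RNA library preparation. The AML group held 7 marrows with acute myeloid leukaemia from transgenic mice carrying both NUP98-NSD1, a fusion of a nucleoporin gene with a histone methyltransferase gene, and FLT3-ITD, an internal tandem duplication in a receptor tyrosine kinase gene. Both normal groups were wild type: 4 libraries of whole marrow and 4 of lineage-negative marrow, the fraction depleted of cells with mature lineage antigens. All genotypes were kept from birth in a mouse facility. The labels give no age, sex or strain, no promoter for the transgenes and no antigens used for lineage depletion. They do not state that each library came from a separate mouse, so p-values measure the spread between these samples.

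All values are the authors' normalized counts, which are read counts divided by 1 size factor per library. Levels are not divided by gene length, so a value is compared between libraries and not between genes. Estimated depth was 20.3 to 35.1 M reads in AML, 11.4 to 17.2 M in whole and 20.3 to 28.1 M in lineage-negative libraries, and 3 reads corresponded to 1.96 to 4.09 normalized counts. The median log2 difference of all 18941 genes tested was 0.67 between AML and whole marrow and 0.59 between lineage-negative and whole marrow. Rescaling by TMM, the trimmed mean of M values, moved these medians to −0.01 and −0.08. The group labels were set against marker genes: erythroid transcripts were lower in AML and lineage-negative than in whole marrow for 6 of 6 genes, and 5 of 5 stem and progenitor genes were higher in lineage-negative than in whole marrow. Rows that should be silent in marrow differed with the group: the mean over 1452 olfactory and vomeronasal receptor genes was 7.14 to 13.5 in whole, 0.384 to 0.499 in lineage-negative and 0.465 to 3.81 in AML libraries. The mean over all V genes was 40.2 to 69.4, 4.77 to 26.5 and 33.9 to 215 in the same order. For the V pseudogene rows it was 0.991 to 3.55, 0.0441 to 0.681 and 0.925 to 2.51, so these overlapped between whole marrow and AML. The lineage-negative replicate 2 stood apart, with a summed immunoglobulin count of 6732 against 18002 to 38703 in the other lineage-negative libraries, and AML replicate 3 stood apart at 233446 against 33551 to 91535.

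The V segments that led in single libraries are shown first, because the uneven use of V segments between libraries is read from them. Each sequence is the last 60 bases of the reference coding sequence of the germline segment, from the GENCODE M21 transcripts of GRCm38, written 5′ to 3′ and matched by gene identifier. The capitals mark the codon of the conserved second cysteine, TGT or TGC, which precedes the antigen-binding loop encoded across the V junction. These are reference sequences and not the rearranged genes of the animals. Ighv3-6 and Ighv1-53 led the heavy V genes, and Igkv12-46 and Igkv3-4 the kappa V genes, in AML replicate 3.
Ighv3-6: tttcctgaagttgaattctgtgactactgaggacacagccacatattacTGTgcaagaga
Ighv1-53: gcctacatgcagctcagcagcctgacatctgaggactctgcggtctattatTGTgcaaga
Igkv12-46: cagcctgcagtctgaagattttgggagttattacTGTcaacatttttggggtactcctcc
Igkv3-4: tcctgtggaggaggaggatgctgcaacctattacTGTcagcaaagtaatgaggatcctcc
Ighv1-18 and Ighv1-52 led the heavy V genes, and Igkv1-110 and Igkv10-96 the kappa V genes, in AML replicate 6.
Ighv1-18: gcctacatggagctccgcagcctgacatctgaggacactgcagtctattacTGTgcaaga
Ighv1-52: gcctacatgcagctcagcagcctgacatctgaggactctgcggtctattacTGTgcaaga
Igkv1-110: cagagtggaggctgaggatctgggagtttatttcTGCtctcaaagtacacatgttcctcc
Igkv10-96: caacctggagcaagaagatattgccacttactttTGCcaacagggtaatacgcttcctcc
Igkv14-130 was high in AML replicate 4 alone, and Ighv14-1 led the heavy V genes of the lineage-negative replicate 3.
Igkv14-130: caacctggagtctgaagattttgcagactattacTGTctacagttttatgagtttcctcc
Ighv14-1: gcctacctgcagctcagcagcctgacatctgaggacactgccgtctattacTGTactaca

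The heavy ends shown stop soon after the cysteine codon, whereas the kappa ends run on into the part of the loop that the V segment itself encodes. The cysteine codon was located by a search of the given strand, in frame, for TAT or TAC, then TAT, TAC, TTT or TTC, then TGT or TGC; it was found in the last 60 bases of 196 of the 203 V coding sequences. Over the whole coding sequence Ighv1-52 and Ighv1-53 were 92.0% identical, whereas Ighv3-6 was 57.8% identical to Ighv1-52. V segments resemble each other: the median identity of a V segment to its nearest other segment was 94.9%, and 98 of 203 were at least 95% identical to one, though none was identical. How the authors assigned reads that match several segments is not given in the sources used here, so values of single V genes are less certain than sums over a chain.

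The share of transcript from immunoglobulin genes overlapped between AML and whole marrow and was smaller in each lineage-negative library than in any whole marrow library. The 215 genes took 0.411, 0.378, 0.357 and 0.242% of all normalized counts in whole replicates 1 to 4 and 0.184, 0.0330, 0.116 and 0.0981% in lineage-negative replicates 1 to 4. In AML the lowest share was 0.116%, the median 0.290% and the highest 0.888%. The AML range enclosed the whole marrow range. A summed immunoglobulin count of 90019.8 ± 67162 (SD, n = 7) in AML compared with 55573 ± 15379 (n = 4) in whole and 21061 ± 13241 (n = 4) in lineage-negative marrow. The AML mean without replicate 3 was 66116, so that the ratio of AML to whole marrow moved from 1.62 to 1.19.

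Of the 215 genes, 165 passed the filter of at least 10 normalized counts in at least 4 samples and were tested in a limma fit over all genes, and a gene was called where its Benjamini-Hochberg adjusted p was under 0.05 and its log2 difference reached 1 in either direction. The other 50 comprised 26 heavy and 23 kappa genes and Gm43218; the median of their highest single values was 9.60, and 7 of them reached 50 in some library, led by Igkv5-37 at 261 in whole replicate 2. In AML against lineage-negative marrow 106 tested members were called higher, beside 17.7% of all genes, and 0 were called lower, beside 12.5% of all genes. At an unadjusted p under 0.05 the counts were 121 and 0. In lineage-negative against whole marrow 94 members were called lower, beside 17.2% of all genes, and 0 higher, beside 33.1%. At an unadjusted p under 0.05 these counts were 105 and 0, and without the lineage-negative replicate 2 the number called lower was 60. Under TMM scaling 103 members were called higher in AML than in lineage-negative marrow and 118 lower in lineage-negative than in whole marrow. These comparisons share samples. The share of all genes called was taken only from the main fit at the adjusted threshold. Counts under TMM scaling or at an unadjusted p, here and below, therefore have no share of all genes beside them.

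AML against whole marrow gave 8 members called higher, beside 27.3% of all genes, and 5 called lower, beside 11.3%. These counts are 4.85 and 3.03% of the tested members, under the share of all genes in both directions. At an unadjusted p under 0.05 they were 10 and 6. Under TMM scaling they were 1 and 9. Without whole marrow replicate 1 they were 1 and 1, and without AML replicate 2 they were 13 and 3. The median log2 difference of the tested members was 0.17 against 0.67 for all genes. In AML against lineage-negative marrow the members' median was 2.31 beside 0.02 for all genes, and in lineage-negative against whole marrow it was −2.10 beside 0.59.

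**Figure D1:**
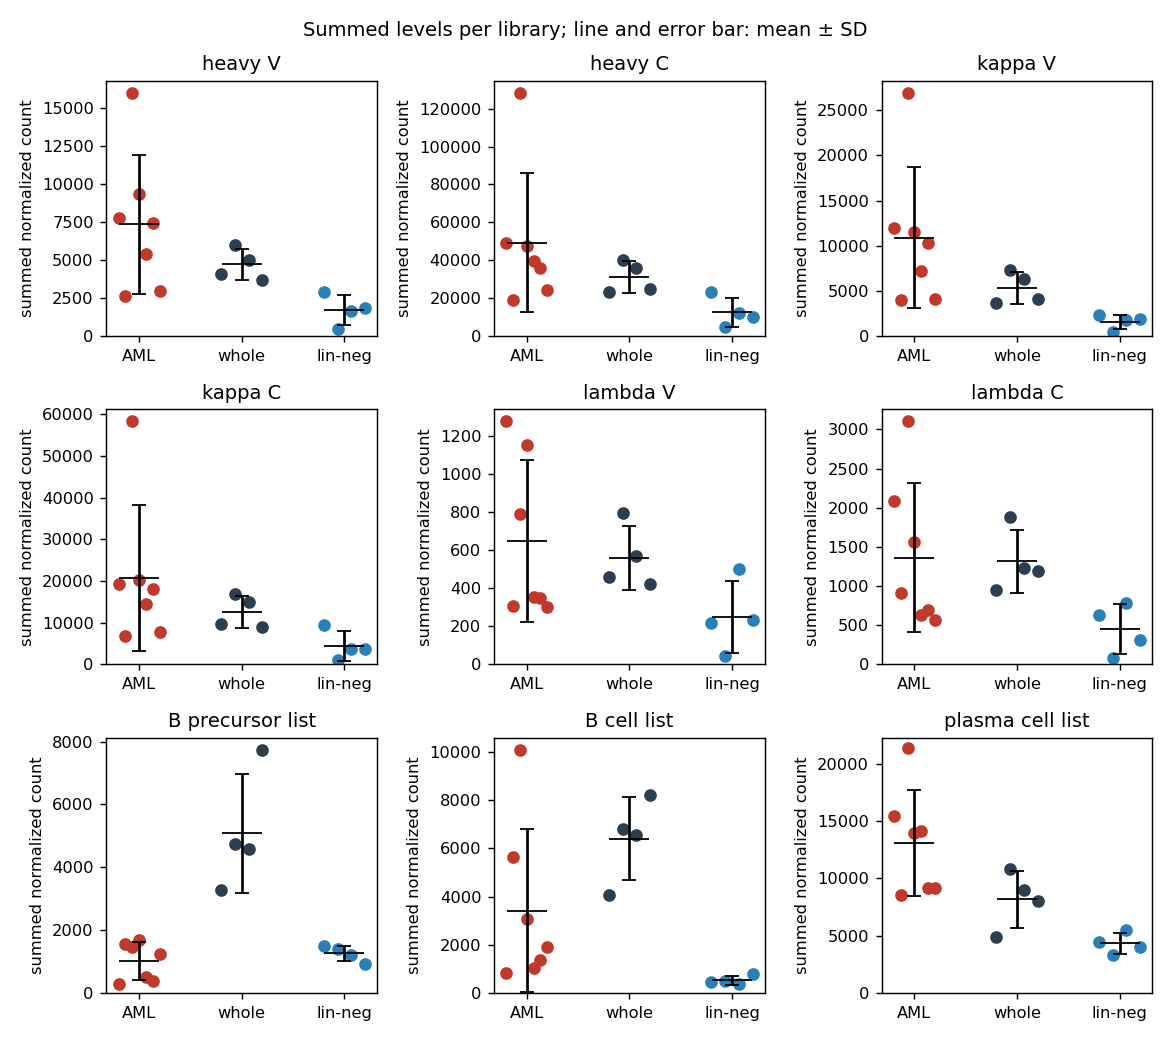
Summed normalized counts of the immunoglobulin gene classes and of 3 lists of B lineage genes in each library (vertical axes from 0), by group, with mean and SD. AML replicate 3 is the highest AML point in the sums of heavy V, heavy C, kappa V, kappa C and lambda C; the B precursor list lies between 269.7 and 1674 in AML and between 3276 and 7742 in whole marrow.

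Among the heavy constant genes, Ighm encodes the mu chain of IgM, the first isotype a B cell makes. Its normalized counts were 7264, 10946, 10875 and 12905 in whole replicates 1 to 4 and 4695, 2538, 2581 and 3612 in lineage-negative replicates 1 to 4. In AML the lowest was 4932, the median 10766 and the highest 108492, in replicate 3; the next highest was 14621. The AML and whole marrow values overlapped, whereas the lowest AML and whole libraries lay above every lineage-negative library. Ighm was higher in AML than in lineage-negative marrow by 2.05 ± 0.53 (SE) on the log2 scale, with an adjusted p of 0.00354. It was lower in lineage-negative than in whole marrow (log2 difference −1.66, adjusted p = 0.0208), a call lost without the lineage-negative replicate 3 (−1.55, adjusted p = 0.0510). The difference between AML and whole marrow was 0.39 ± 0.53 (adjusted p = 0.533) and −0.30 under TMM scaling.

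Ighd encodes the delta chain, which mature naive B cells make beside mu by alternative splicing. It was 218, 398, 550.0 and 600.3 in whole marrow and 19.97, 17.6, 23.8 and 57.4 in lineage-negative marrow. The AML libraries were spread from 6.17 in replicate 6 through a median of 109 to 967 in replicate 2. The fall from whole to lineage-negative marrow was −3.91 ± 1.04 on the log2 scale (adjusted p = 0.00277). AML against whole marrow gave −2.07 (adjusted p = 0.0554), and the difference was called under TMM scaling (−2.76) and without AML replicate 2 (−2.62), 3 (−2.47) or 4 (−2.24). AML against lineage-negative marrow gave 1.84 (adjusted p = 0.112), called without AML replicate 6 (2.47). The ratio of Ighm to Ighd was 19.8 to 33.3 in whole, 62.9 to 235 in lineage-negative and 8.26 to 799 in AML libraries, where only replicate 2 lay below the whole marrow range.

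The gamma constant genes encode the chains of the IgG subclasses. Ighg1 was 1992, 4316, 2674 and 573 in whole marrow and 197, 7.05, 166 and 880.4 in lineage-negative marrow. Its AML counts ran from 16.9 in replicate 2 through a median of 457 to 659. Ighg1 was the only constant gene called between AML and whole marrow, with a log2 difference of −2.79 ± 0.99 and an adjusted p of 0.0197. The call was lost without whole replicate 1, 2 or 3 (adjusted p = 0.0622, 0.0688 and 0.0505), and whole replicate 4 lay within the AML range. Ighg1 also was lower in lineage-negative than in whole marrow (−3.95, adjusted p = 0.00462).

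Ighg2b was 7387, 8066, 9848 and 2553 in whole marrow. Its AML counts had a lowest value of 1136, a median of 1828 and a highest of 3295, so that only whole replicate 4 fell inside the AML range. AML against whole marrow gave −1.73 ± 0.97 (adjusted p = 0.124) in the fit of 3 groups. In a fit of those groups alone the adjusted p of the same difference was 0.000629. The lineage-negative libraries held 1028, 4.41, 293 and 1534, lower than whole marrow by −4.80 ± 1.09 and lower than AML, where the difference was 3.07 ± 0.97 (adjusted p = 0.0136).

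Ighg2c was 2279.7, 3081, 3909 and 909 in whole marrow and 1495, 2742 and 5413 at the lowest, median and highest AML library. These groups overlapped, with a log2 difference of 0.37 ± 1.13 (adjusted p = 0.786). In lineage-negative replicates 1 to 4 it was 527, 0, 84.6 and 779.9. Against that group Ighg2c had the largest positive fitted difference of all tested members, 5.23 ± 1.13 in AML (adjusted p = 0.000802). Lineage-negative against whole marrow gave −4.86 (adjusted p = 0.00258).

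Ighg2b and Ighg2c were in a different balance in AML and in whole marrow, an observation made after their values had been seen and therefore given without a test. The ratio of Ighg2c to Ighg2b was 0.309, 0.382, 0.397 and 0.356 in whole replicates 1 to 4. In AML replicates 1 to 7 it was 1.95, 1.15, 1.47, 1.47, 2.19, 0.812 and 2.41. Every AML library lay above every whole marrow library, by a ratio of group means of 4.54. The lineage-negative ratios were 0.513, 0, 0.289 and 0.508, all below the AML libraries. The constant genes of the gamma subclasses resemble each other, and a division of shared reads between them was not tested.

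Ighg3 was called in no comparison; its AML counts were 3.82 at the lowest, 15.1 at the median and 289 at the highest, beside 33.2, 77.7, 11.5 and 128 in whole marrow and 13.6, 0, 15.9 and 42.4 in lineage-negative marrow. Ighe, the epsilon gene of IgE, did not pass the filter. It reached 97.5 in AML replicate 6 and 29.2 in AML replicate 2, and 0 to 7.83 in the normal libraries. The 4 gamma genes together took 16.8 to 50.5% of the heavy constant count in whole, 0.243 to 32.3% in lineage-negative and 6.93 to 17.3% in AML libraries.

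Igha encodes the alpha chain of IgA, made by many plasma cells of mucosal origin. It was 3949.9, 13206, 8092 and 7151 in whole marrow and 16648, 2155, 9155 and 3112 in lineage-negative marrow. The AML counts were 7207 at the lowest, 20019 at the median and 33033 at the highest, with 4 of 7 libraries above every normal library. Igha was higher in AML than in lineage-negative marrow by 1.51 ± 0.52 (adjusted p = 0.0236), a call lost without the lineage-negative replicate 2 (1.04) or 4 (1.22) and among all non-zero genes (adjusted p = 0.0535). AML against whole marrow gave 1.12 ± 0.52 (adjusted p = 0.0688), which passed without AML replicate 2 (1.31) or 7 (1.31) or whole replicate 2 (1.39) and in a fit of those groups alone (adjusted p = 0.0355). Lineage-negative against whole marrow gave −0.39 ± 0.59 (adjusted p = 0.578). Of the 7 tested heavy constant genes, 5 were lower in lineage-negative than in whole marrow, beside 17.2% of all genes. Igha and Ighg3 were not called.

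Shares within the heavy constant genes, taken as counts and not per length, varied widely between AML libraries. Ighm took 84.5% in AML replicate 3 and 13.8% in AML replicate 6, where Igha took 71.5%. In whole marrow Ighm took 27.3 to 52.0% and Igha 17.1 to 32.9%. The log2 ratio of Igha to Ighm was 0.26 ± 1.96 in AML, −0.47 ± 0.54 in whole and 0.80 ± 1.18 in lineage-negative marrow. None of the differences passed an exact two-sided permutation test (p = 0.500, 0.661 and 0.114 for AML against whole, AML against lineage-negative and lineage-negative against whole). The 9 ratio tests had adjusted p-values together, and the smallest p the design allows is 0.00303 for comparisons with AML and 0.0286 between the normal groups.

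**Figure D2:**
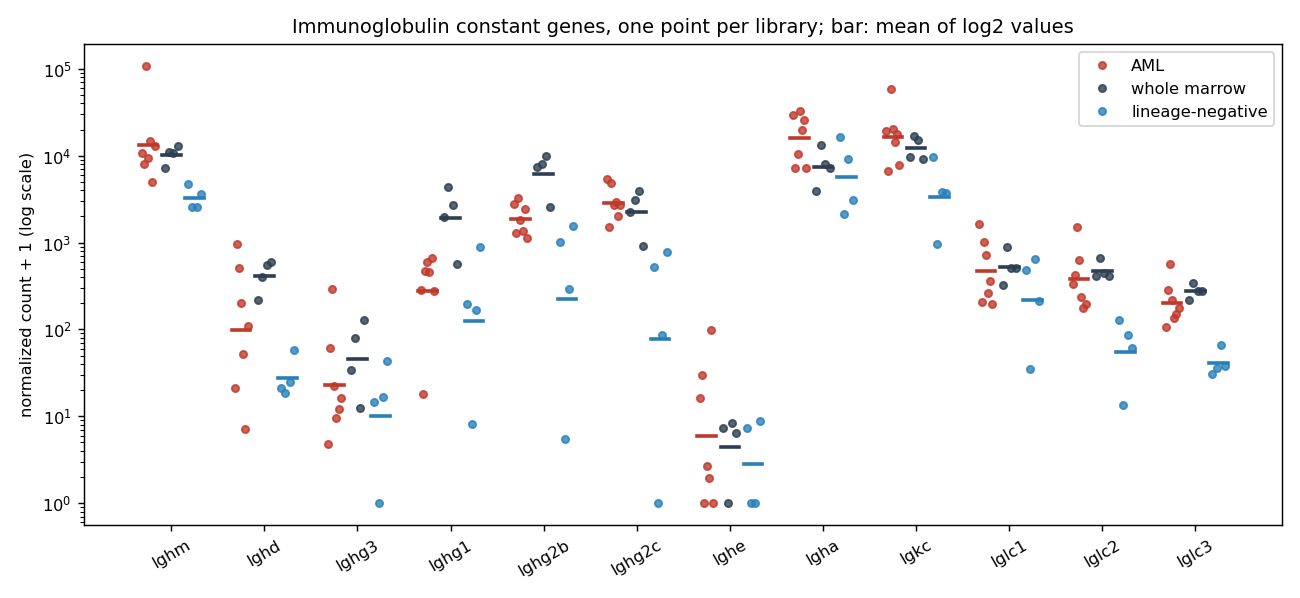
Normalized count plus 1 (log axis) of the 12 constant genes, 1 point per library, with bars at the mean of the log2 values of 7 AML, 4 whole and 4 lineage-negative libraries. Ighm and Igkc overlap between AML and whole marrow, the Ighg1 bar of AML lies below that of whole marrow, and 1 AML library reaches 108492 for Ighm.

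The light chain constant genes also were lowest in lineage-negative marrow on average. Igkc, the single kappa constant gene, was 9722, 16820.2, 15038 and 9070.2 in whole marrow and 9556, 959.7, 3813 and 3742 in the lineage-negative libraries. The AML counts were 6702 at the lowest, 18032 at the median and 58236 at the highest, in replicate 3. AML exceeded lineage-negative marrow by 2.27 ± 0.52 on the log2 scale (adjusted p = 0.00138), although lineage-negative replicate 1 lay above AML replicates 2 and 7. Lineage-negative marrow was lower than whole marrow (−1.85, adjusted p = 0.00998), a call lost without lineage-negative replicate 2 (−1.25, adjusted p = 0.0529). AML against whole marrow gave 0.42 (adjusted p = 0.495) and −0.27 under TMM scaling.

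The lambda locus holds few V and C genes in mice and serves a minority of B cells. Iglc2 was 409, 663, 449 and 408 in whole, 128, 12.3, 84.6 and 59.4 in lineage-negative and 176, 336 and 1513 at the lowest, median and highest AML library. The AML libraries all lay above the lineage-negative ones, with a difference of 2.79 ± 0.54 (adjusted p = 0.000294). Iglc3 was 215, 344, 273 and 279.7 in whole, 29.95, 35.3, 65.2 and 36.5 in lineage-negative and 106, 177 and 566 in AML. It was higher in AML than in lineage-negative marrow (2.30, adjusted p = 2.34e-05); AML against whole marrow gave −0.45, which was called under TMM scaling (−1.14). Iglc1 was called in no comparison, with 193, 363 and 1646 in AML, 321 to 880.3 in whole and 34.4 to 639.9 in lineage-negative libraries. Under TMM scaling it was lower in lineage-negative than in whole marrow (−1.94).

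The 3 lambda V genes also passed the filter. Iglv1 was lower in lineage-negative than in whole marrow (−1.43, adjusted p = 0.0374). This call was lost without lineage-negative replicate 1 or 2 or whole replicate 1, 2 or 3, and reached −0.72 without lineage-negative replicate 2. Iglv2 was 45.2 to 90.6 in whole, 4.41 to 34.5 in lineage-negative and 20.98 to 564 in AML libraries. It was higher in AML than in lineage-negative marrow by 2.45 ± 0.66. Iglv3 was 25.1 to 49.6 in whole, 0 to 9.14 in lineage-negative and 30.8 to 134 in AML libraries, and higher in AML than in lineage-negative marrow by 4.04 ± 0.53 (adjusted p = 3.72e-06). No lambda gene was called between AML and whole marrow. Iglv1 held most of the lambda V count in whole marrow (74.8 to 83.2%) and lineage-negative marrow (81.9 to 96.8%). Its AML share was 48.0 to 85.2%, lowest in replicate 1, where Iglv2 took 44.1%.

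Kappa predominated over lambda in every group. Igkc took 88.4 to 92.4% of the light constant count in whole, 82.8 to 93.7% in lineage-negative and 88.0 to 96.3% in AML libraries. The log2 ratio of Igkc to Ighm was 0.28 ± 1.02 in AML, 0.25 ± 0.51 in whole and 0.06 ± 1.05 in lineage-negative marrow. Exact two-sided permutation tests gave p = 0.958, 0.733 and 0.771 for these 3 comparisons. The ratio of the summed kappa V count to Igkc was 0.462 to 0.623 in AML, 0.373 to 0.446 in whole and 0.239 to 0.493 in lineage-negative libraries. Every AML library lay above every whole library for kappa. The matching ratio of the summed heavy V to the summed heavy C count overlapped between groups. It was 0.122 to 0.208 in AML, 0.140 to 0.178 in whole and 0.102 to 0.184 in lineage-negative libraries. These V to C ratios were not tested.

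Cd79a encodes a signalling partner of the membrane antibody and is made by B lineage cells. The ratio of Ighm to Cd79a was the steadiest of those measured in whole marrow, 3.41 ± 0.06 on the log2 scale (n = 4). It was 6.02 ± 1.28 in AML (n = 7) and 7.08 ± 1.22 in lineage-negative marrow (n = 4). Cd79a was only 34.3, 5.29, 20.3 and 69.2 in lineage-negative replicates 1 to 4. The highest ratio, 8.66 in lineage-negative replicate 2, therefore rests on few Cd79a reads. All 7 AML libraries lay above all 4 whole libraries, a difference of 2.61 with p = 0.00909 by an exact two-sided permutation test and 0.0818 after adjustment over the 9 ratio tests. The adjusted value without AML replicate 2 was 0.0429. Lineage-negative against whole marrow gave 3.67 with p = 0.0286, the smallest this exact permutation test allows, and an adjusted p of 0.129. AML against lineage-negative marrow gave −1.06 (exact permutation p = 0.197).

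**Figure D3:**
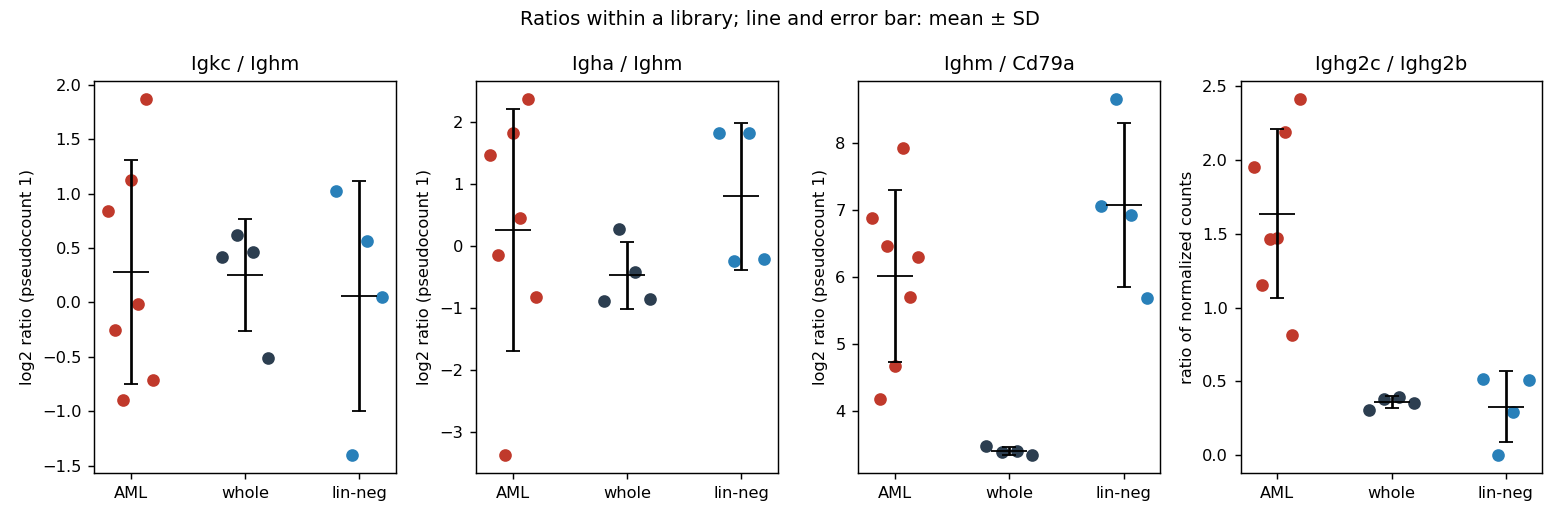
Ratios of normalized counts within each library, 1 point per library with mean and SD by group: log2 ratios for Igkc to Ighm, Igha to Ighm and Ighm to Cd79a, and the plain ratio for Ighg2c to Ighg2b. The 7 AML points lie above the 4 whole marrow points for Ighm to Cd79a and for Ighg2c to Ighg2b, and overlap them for the other ratios.

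Genes of B cell precursors and B cells were mostly lower in AML than in whole marrow, and few plasma cell genes were called in either direction. Of all genes 11.3% were called lower and 27.3% higher in AML than in whole marrow. Of 9 tested genes of B cell precursors 8 were lower and 0 higher in AML, compared with whole marrow, and all 9 were lower under TMM scaling. Rag1, a subunit of the recombinase, was 752, 1339.9, 1073 and 2341 in whole marrow and 2.45, 38.7 and 308 at the lowest, median and highest AML library, a log2 difference of −5.37 with no overlap. Vpreb3 and Ebf1, the latter an early B cell transcription factor, had differences of −4.65 and −3.29. Of 10 B cell genes 8 were lower and 0 higher. Cd79a was 648, 1034, 1019 and 1264 in whole and 59.5, 162 and 1230.3 at the lowest, median and highest AML library (−2.22), with AML replicate 3 within the whole marrow range and the other AML libraries below it.

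Of 11 plasma cell genes 2 were higher in AML than in whole marrow, beside 27.3% of all genes, and 1 was lower, beside 11.3%. Prdm1, which encodes the plasma cell regulator Blimp-1 and is also made by other blood cells, was 26.9, 30.8, 49.0 and 40.9 in whole and 92.5, 157 and 229 in AML, a difference of 1.97 without overlap. Xbp1, a regulator of the secretory pathway that is not restricted to plasma cells, was higher by 1.31, a call lost under TMM scaling. Pou2af1, a coactivator at immunoglobulin promoters, was lower (−1.84). Jchain, whose product joins IgM and IgA units, was 2376, 5862, 4275 and 2838 in whole and 1678, 6645 and 10992 in AML, with a difference of 0.36 (adjusted p = 0.539). Sdc1 and Mzb1 differed by −0.11 and 0.15 and were not called. The ratio of Jchain to Cd79a was 2.24 to 5.66 in whole, 15.2 to 131 in lineage-negative and 3.84 to 109.9 in AML libraries. The lineage-negative ratios rest on the low Cd79a counts given above. Whether the immunoglobulin levels follow the numbers of B or plasma cells was not tested.

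The summed B precursor list was 269.7 to 1674 in AML, 3276 to 7742 in whole and 933 to 1486 in lineage-negative libraries. In lineage-negative marrow Dntt made up most of this sum. Dntt alone was 13.6 to 416 in AML, 435 to 634 in whole and 663 to 1235 in lineage-negative libraries. Ebf1 was 25.4 to 152, 500 to 1081 and 4.41 to 17.6 in the same order. The summed B cell list was 842 to 10078, 4060.3 to 8206 and 373 to 771, and the summed plasma cell list 8543 to 21377, 4843 to 10832.5 and 3335 to 5519, in the same order. Jchain and Xbp1 had the highest means of the plasma cell list in every group. Xbp1, which is not restricted to plasma cells, was 3730 to 6299 in AML, 1198 to 2755 in whole and 1677 to 2477 in lineage-negative libraries. In AML against lineage-negative marrow 4 of 9 precursor genes were higher and 2 lower, 7 of 10 B cell genes higher, and 7 of 11 plasma cell genes higher and 1 lower. Of all genes 17.7% were called higher and 12.5% lower in that comparison. In lineage-negative against whole marrow 8 of 9 precursor, 10 of 10 B cell and 6 of 11 plasma cell genes (7 under TMM scaling) were lower, beside 17.2% of all genes. One plasma cell gene, Fkbp11, was higher there, beside 33.1% of all genes. T cell genes, another lymphoid type, were higher in AML than in whole marrow for 5 of 8, beside 27.3% of all genes. No T cell gene kept this call under TMM scaling. The T cell sum was 533 to 873 in whole, 164 to 345 in lineage-negative and 997 to 4239 in AML libraries.

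The other pathway genes were called in both directions between AML and whole marrow, beside 27.3% of all genes called higher and 11.3% lower. Of 12 enzymes of V joining and class switching, 1 was called higher in AML than in whole marrow and 3 lower. The first was Prkdc (1.16, not called under TMM scaling), and the 3 were Rag1, Rag2 and Dntt, the polymerase that adds bases at V junctions. Under TMM scaling 5 were lower, with Xrcc5 and Lig4 added. Of 12 activators of immunoglobulin genes 3 were higher and 3 lower. Pou2f2, the octamer-binding factor Oct-2, was higher by 1.70, Irf8 by 2.33 and Spi1 by 1.20, whereas Pax5, Ebf1 and Pou2af1 were lower. Under TMM scaling the call of Spi1 was lost and Spib was also lower (−1.60). Of 10 genes of antigen receptor signalling 2 were higher, Lyn and Plcg2, and 4 lower, among them Cd79a, Cd79b and Blnk. Under TMM scaling 0 were higher and 5 lower. The ratio of whole to lineage-negative mean was 0.569 for Pou2f2, 0.427 for Irf8, 1.57 for Spi1, 2.26 for Lyn and 1.18 for Plcg2. For Pax5, Ebf1, Pou2af1, Cd79a, Cd79b and Blnk it was 80.6, 66.3, 35.8, 30.7, 4.63 and 12.8. Whether the higher levels in AML came from B lineage cells was not tested.

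Many variable genes were lower in lineage-negative marrow than in the other groups, and few differed between AML and whole marrow. In AML against lineage-negative marrow 46 of 77 tested heavy V genes and 51 of 74 kappa V genes were higher, beside 17.7% of all genes, and 0 were lower in either chain; under TMM scaling 44 and 50 were higher. In lineage-negative against whole marrow 38 heavy V and 45 kappa V genes were lower, beside 17.2% of all genes, and 0 higher; under TMM scaling 52 and 54 were lower. In AML against whole marrow 3 heavy V and 5 kappa V genes were higher, beside 27.3% of all genes, and 2 of each chain lower, beside 11.3%. Under TMM scaling 0 heavy V and 1 kappa V genes were higher and 3 of each chain lower. The log2 differences between AML and whole marrow ran from −3.81 to 2.31 over heavy V and from −2.15 to 2.62 over kappa V genes, with 44 of 77 and 50 of 74 above 0. The summed heavy V count was 7356 ± 4563 in AML, 4713 ± 1029 in whole and 1712 ± 977 in lineage-negative marrow. For kappa V it was 10859 ± 7812, 5315 ± 1765 and 1576 ± 793.

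Igkv4-58 had the largest positive log2 difference between AML and whole marrow. It was 3.59, 0, 19.8 and 2.73 in whole, 0 in all 4 lineage-negative and 9.87, 17.2 and 55.8 at the lowest, median and highest AML library. AML was higher than whole marrow by 2.62 ± 0.65 (adjusted p = 0.0018), also under TMM scaling. Among the normal libraries only whole replicate 3 reached the filter's 10 normalized counts. Igkv4-58 therefore passed the filter only through the AML libraries, the group where it was high. Against lineage-negative marrow AML was at least 11.5-fold higher, against a floor of 3 reads per library, which is 2.72 normalized counts in the library where it is highest. Ighv5-6 was 6.28, 25.5, 45.9 and 13.6 in whole and 39.6, 101 and 208 in AML, a difference of 2.31 ± 0.71 (adjusted p = 0.00868). The call of Ighv5-6 was lost under TMM scaling (1.65) and without whole replicate 1 (1.84).

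Igkv1-110 and Igkv1-117, neighbours in sequence at 97.2% identity over the coding sequence, were among the 5 kappa V genes with the highest mean count. Igkv1-110 was 96.8, 567, 236 and 228 in whole, 71.6, 17.6, 91.9 and 108 in lineage-negative and 279, 899 and 4049 in AML. It was higher in AML than in whole marrow by 1.82 ± 0.59 (adjusted p = 0.0111), a call lost under TMM scaling (1.13) and without whole replicate 1 (1.40). Igkv1-117 was 205, 352, 272 and 192 in whole and 254, 474 and 1579 in AML, a difference of 1.23 ± 0.49 (adjusted p = 0.0350). Its call was lost under TMM scaling (0.54) and without any of AML replicates 1, 4 and 5 or whole replicates 1, 3 and 4. Both were higher in AML than in lineage-negative marrow, by 3.76 and 3.28. The other V genes called higher between AML and whole marrow, named after their values were seen, were Ighv2-2 (1.91), Igkv9-124 (1.63), Ighv1-34 (1.58) and Igkv4-79 (1.47), none of them called under TMM scaling.

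Ighv1-36 had the most negative difference between AML and whole marrow. It was 47.6, 228, 61.6 and 2.73 in whole, 5.45, 12.3, 6.17 and 8.48 in lineage-negative and 0, 1.27 and 8.64 in AML. Whole replicate 4 lay within the AML range, and the difference was −3.81 ± 0.84 (adjusted p = 0.000682). No AML library reached the filter's 10 normalized counts, so Ighv1-36 passed the filter through normal libraries only. The other V genes called lower had low counts in all groups; one of them, Ighv7-1, differed by −1.84 (adjusted p = 0.0434). Igkv4-90 was 18.8, 24.1, 27.1 and 2.73 in whole and 0 to 10.4 in AML (−2.15, adjusted p = 0.0456), and Igkv4-50 was 27.8, 12.1, 66.8 and 34.1 in whole and 0 to 33.1 in AML (−1.89, adjusted p = 0.0362). The call of Igkv4-90 was lost without AML replicate 1, 2, 3 or 6 or whole replicate 1, 2 or 3, and that of Igkv4-50 without AML replicate 2 or 5 or whole replicate 1, 3 or 4.

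Against lineage-negative marrow, Ighv6-6 had the largest heavy V difference. It was 41.8, 0, 0 and 5.87 in lineage-negative and 4.50, 113 and 388 at the lowest, median and highest AML library, a difference of 4.15 ± 1.02 (adjusted p = 0.00241). Ighv1-62-2 had the most negative heavy V difference between lineage-negative and whole marrow. It was 47.1, 39.7, 34.1 and 16.1 in whole and at most 3.07 in lineage-negative marrow (−4.25 ± 0.59, adjusted p = 6.16e-06). Ighv9-3, among the 5 most abundant heavy V genes, was 148, 335, 150.3 and 265 in whole, 93.5, 0, 44.9 and 71.1 in lineage-negative and 86.2 to 357 in AML. It was lower in lineage-negative than in whole marrow (−3.16 ± 0.94) and differed by −0.12 between AML and whole marrow. Ighv1-71, which is 99.7% identical to Ighv1-62-2, had the most positive difference between lineage-negative and whole marrow, 1.27 ± 1.09, and was not called (adjusted p = 0.320).

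Use of single V genes, as the percent of the library's V count of that chain, was more even in whole marrow than in some AML libraries. The 2 leading heavy V genes together took 9.82 to 12.8% in whole marrow and 11.4 to 23.0% in lineage-negative marrow. In AML the highest were replicate 6 (41.9%) and replicate 3 (39.7%), and the other 5 lay between 13.3 and 16.2%. For kappa they took 12.1 to 15.2% in whole and 13.2 to 30.1% in lineage-negative marrow. In AML they took 58.2, 41.2 and 26.4% in replicates 6, 3 and 2 and between 13.1 and 22.2% in the other 4. The highest lineage-negative values, 23.0 and 30.1%, were both in replicate 2, whose heavy and kappa V sums were only 483 and 442. These shares are a description and were not tested.

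In AML replicate 3, Ighv3-6 took 27.8% of the heavy V count and Ighv1-53 took 11.9%. Ighv3-6 was 4461 there and 42.7 to 329.5 in the other AML libraries, and Ighv1-53 was 1899 against 36.0 to 248. Igkv12-46 took 27.3% and Igkv3-4 took 14.0% of the kappa V count. Igkv12-46 was 7336 there against 49.5 to 356, and Igkv3-4 was 3759 against 0 to 162. The median share of Ighv3-6 in the other 14 libraries was 3.23% and that of Igkv3-4 was 0.656%. This library also held the highest Ighm, at 84.5% of its heavy constant count, and the highest Cd79a of the AML group.

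In AML replicate 6 the heavy leaders were Ighv1-18 at 23.3% and Ighv1-52 at 18.6%. Ighv1-18 was 1732 there against 14.4 to 129.8 in the other AML libraries, and Ighv1-52 was 1378 against 17.2 to 156. The kappa leaders were Igkv1-110 at 39.2% and Igkv10-96 at 18.9%, with 4049 and 1956 against 279 to 976 and 266 to 694. The median share of Igkv1-110 in the other 14 libraries was 5.75%, so it was a frequent segment elsewhere too. In this library Igha took 71.5% of the heavy constant count and Cd79a was 93.8. The mean of the silent receptor genes was 3.81 there, the highest in AML, and its part in these values was not tested.

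**Figure D4:**
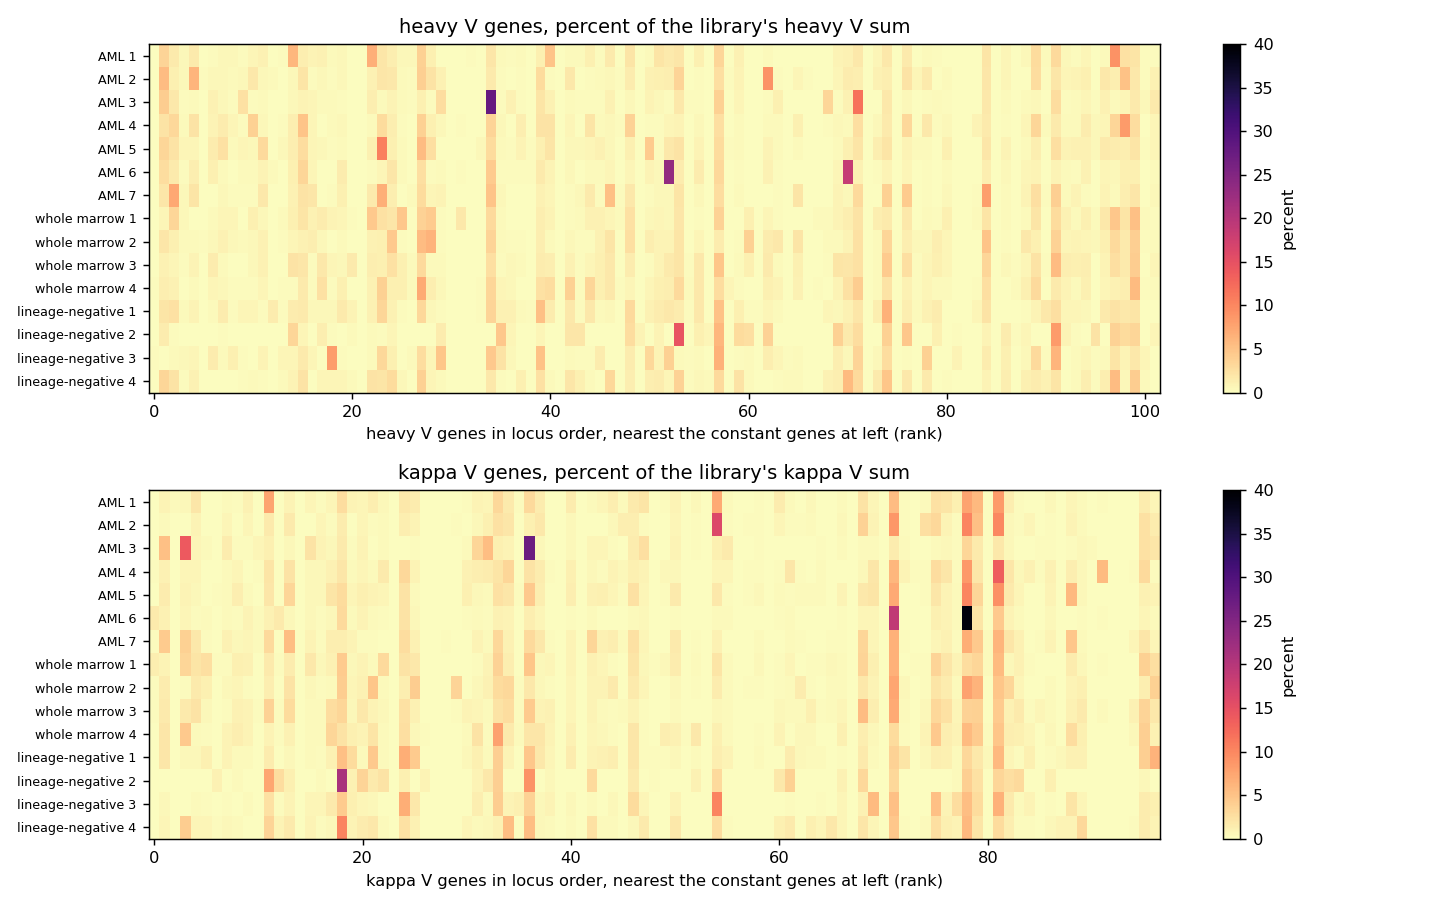
Percent of each library's heavy (top) or kappa (bottom) V count taken by each V gene, with genes in locus order from the constant genes at left and libraries in rows. Single dark cells mark Ighv3-6 and Igkv12-46 in AML 3, and Ighv1-18, Ighv1-52, Igkv10-96 and Igkv1-110 in AML 6; pale columns shared by most rows are the commonly used segments.

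The effective number of V genes, the inverse of the summed squared shares, also was lowest in AML replicates 3 and 6. For heavy V it was 37.7 to 44.6 in whole marrow, 19.6 to 41.9 in lineage-negative marrow. It was 9.79 in AML replicate 3, 10.2 in AML replicate 6 and 28.5 to 35.5 in the remaining AML libraries. For kappa it was 29.2 to 36.1 in whole, 13.4 to 30.96 in lineage-negative libraries. In AML it was 5.11 for replicate 6, 9.35 for replicate 3 and 15.5 to 30.1 for the remainder. Each AML library lay below every whole library for heavy V. The number of V genes at or above the floor of 3 reads was similar, 68 to 85 of 102 heavy V in AML and 80 to 89 in whole marrow. It was 37 to 81 in lineage-negative marrow. In whole marrow the floor lay below the mean of the silent receptor genes, so reaching it does not separate a V gene from that background. By estimate every AML library was also deeper than every whole marrow library.

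**Figure D5:**
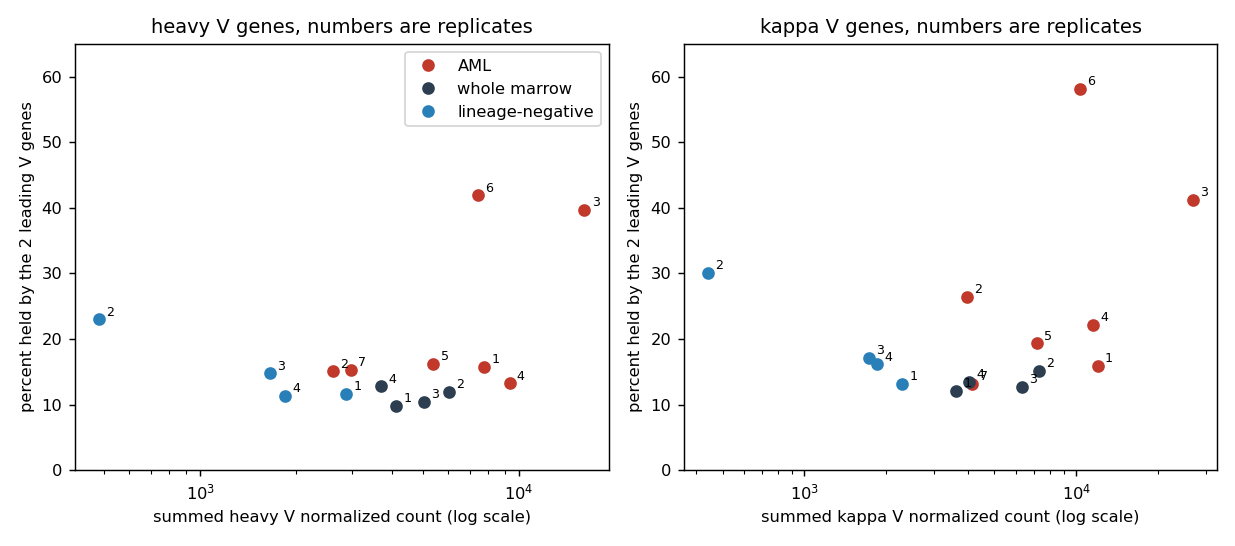
Percent of the V count held by the 2 leading V genes of each library against the summed V count (log axis), for heavy (left) and kappa (right) chains, with replicate numbers beside the points. AML 3 and AML 6 lie highest at 39.7 and 41.9% for heavy and 41.2 and 58.2% for kappa chains, and the 4 whole marrow libraries lie between 9.82 and 15.2%.

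Other segments took large shares of 1 or several libraries. Igkv14-130 was 662 in AML replicate 4, 5.75% of its kappa V count, and at most 31.8 in any other library; its share was 279 times the median of the other 14. Its nearest segment, Igkv14-126, was 83.3% identical. The heavy leaders of AML replicate 6 had closer neighbours: Ighv1-52 was 98.6% identical to Ighv1-61 and Ighv1-18 was 96.9% identical to Ighv1-26. Igkv4-72 took 16.2% of the kappa V count in AML replicate 2, with 641 normalized counts, 10.3% in lineage-negative replicate 3, with 178, and 7.13% in AML replicate 1, with 855. Ighv11-2 took 10.7% of the heavy V count in AML replicate 5 and 6.59% in AML replicate 7. Ighv14-1 was 136 in lineage-negative replicate 3, 8.20% of its heavy V count.

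V genes were also summed by family. Ighv1, the largest heavy family with 50 rows, took 49.0 ± 8.29% of the heavy V count in AML, 54.0 ± 5.29% in whole and 60.5 ± 11.7% in lineage-negative marrow. Ighv2 took 7.70 ± 1.87% in AML and 4.05 ± 1.54% in whole marrow, and Ighv5 took 11.5 ± 3.81% and 7.00 ± 2.24%. Ighv7 took 1.70 ± 1.09% in AML and 5.12 ± 2.61% in whole marrow. The Igkv1 family took 22.6 ± 11.5% of the kappa V count in AML, with a range of 7.71 to 44.7%, and 14.4 ± 1.27% in whole marrow. Igkv4, the largest kappa family with 26 rows, took 13.4 ± 6.28, 11.8 ± 2.58 and 13.8 ± 3.47% in AML, whole and lineage-negative marrow. The Igkv8 family took 5.60 ± 1.85, 9.02 ± 1.12 and 10.9 ± 3.65% in the same order. Family shares were not tested.

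Position in the locus was described by the rows nearest the constant genes, 51 of 102 heavy V and 48 of 97 kappa V rows. For heavy V, on chromosome 12, these took 51.7 ± 8.63% in AML, 47.5 ± 5.76% in whole and 42.0 ± 12.5% in lineage-negative marrow. For kappa V, on chromosome 6, they took 48.8 ± 1.56% in whole and 54.0 ± 9.31% in lineage-negative marrow. In AML they took 43.9 ± 17.6%, from 25.03% in replicate 6 to 77.2% in replicate 3. In the coordinates of the table, Igkv3-4 lies at chr6:70648772-70649361 and Igkv12-46 at chr6:69741507-69742006, both among the rows near Igkc at chr6:70703419-70703950. Igkv1-110 lies among the far rows, at chr6:68247469-68248251. The lambda genes lie on chromosome 16, with Iglc1 at chr16:18880368-18880821, and Ighm lies at chr12:113382178-113386350. The submitters' processing notes name mm10, yet the starts of the 215 members differ from those of a GRCm38 annotation with the same gene lengths, so no build is assigned to these coordinates, which are the table's own.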

How the data were processed

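Values are normalized counts per gene for 15 libraries, a signal made by the authors by dividing read counts by a DESeq2 size factor per library; the name of the deposited table calls this factor poscounts. STAR, Partek, DESeq2 and the build mm10 are named without roles per the submitters' processing notes; the handling of multiply mapped reads and of strand is not given in the sources used here. Of the low values, 82.1 to 87.0% were whole multiples of the value of 1 read (tolerance 0.02), so whole reads were not recovered, no count model was run, and depths are estimates. Floors cover counting error only.

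Each library's group came from its labels. Genes with at least 10 normalized counts in at least 4 samples entered 1 limma 3.58.1 fit (R 4.3.3) of log2(value + 1) over 3 group means, with empirical Bayes and a mean-variance trend, two-sided, Benjamini-Hochberg adjusted over 18941 genes. Differences are on that scale, which understates the change of low genes. The procedure was tested on simulated data. Ratios within a library were compared by exact two-sided permutation tests. The members, gene lists and rules were chosen with earlier results of these data known. Named members are all C genes, the 5 heavy, 5 kappa and all lambda V genes with the highest mean, and the 3 largest and 3 smallest differences per comparison; V genes that led a single library were chosen after their values were seen. The alternatives were pseudocounts of 0.1 and 5, all non-zero genes, a minimum mean of 50, rescaling by TMM, each pair of groups alone, the replicate block and each library left out.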

Additional observations from a re-analysis of the deposited data

Results flagged for a closer look

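Single libraries stood far from the rest of their group in 12 of 66 groups of values tested by Dixon's criterion, a criterion that chance meets in about 1 in 20 groups; the groups overlap, since sums contain the genes. AML replicate 3 accounted for 9 of the 12. Its summed count was 128376 for heavy C genes (19064 to 49073 in the other AML libraries), 26914 for kappa V genes (3959 to 11987) and 233446 for all members (33551 to 91535). The kappa C sum, which is Igkc, was 58236 (6702 to 20289.9). Its counts of single genes were 108492 for Ighm (4932 to 14621), 289 for Ighg3 (3.82 to 60.7), 1513 for Iglc2 (176 to 630.3) and 566 for Iglc3 (106 to 282). In AML replicate 6 Ighe was 97.5 against 0 to 29.2. In lineage-negative replicate 4 Ighd was 57.4 against 17.6 to 23.8, and in whole replicate 2 Iglc2 was 663 against 408 to 449.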

How the results depend on the processing

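The numbers of members called higher in AML than in lineage-negative marrow (106) and lower in lineage-negative than in whole marrow (94) stayed within 1.5 times under both pseudocounts, TMM scaling, all non-zero genes, pairwise fits and the replicate block. With a minimum mean of 50, which left 81 members tested, they were 63 and 50, and leaving out single libraries gave 73 to 115 and 60 to 100. A single member, Ighv1-23 (named after its value was seen), was called lower in AML than in lineage-negative marrow among all non-zero genes, which tests all 215. The calls between AML and whole marrow were less stable. The 8 higher calls became 4 with the minimum mean of 50, 1 under TMM scaling, 16 with the replicate block and 5 without AML replicates 3 and 6, an alternative chosen after seeing the data. The 5 lower calls became 2 with a pseudocount of 0.1, 11 among all non-zero genes, 2 with the minimum mean of 50, 9 under TMM scaling and 8 without AML replicates 3 and 6. Leaving out single libraries gave 1 to 13 higher and 1 to 8 lower calls. The replicate numbers do not pair the samples: same-numbered libraries correlated from −0.288 to 0.171. With the block, AML against lineage-negative marrow was called for Ighd (2.97, adjusted p = 0.00465) and no longer for Igha (1.55, adjusted p = 0.0723). The log2 ratio of Igkc to Ighm changed sign when single libraries were left out, from −0.24 to 0.23 for AML against whole, −0.27 to 0.54 for AML against lineage-negative and −0.51 to 0.30 for lineage-negative against whole marrow. For Igha to Ighm, AML against lineage-negative marrow ran from −0.90 to 0.06, with 0.0600 without AML replicate 3. For Ighm to Cd79a, AML against whole marrow ran from 2.29 to 2.91. Of the values of named members with 1 library left out, 54 lost, 31 gained and 965 kept a side of the threshold; under the other settings 21 lost and 35 gained one. Whole marrow was the shallowest group, and V genes at a few normalized counts are within the level of the silent receptor genes there. The V pseudogene rows had lower means than those receptor genes in whole marrow. The cause was not tested.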
